A study of Mus musculus with 6 samples.

Results

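Cytochrome P450 enzymes were followed in whole inguinal mammary glands, taken 4 weeks after birth from C57BL/6J mice. P450 genes were taken as all genes whose symbol is Cyp followed by a family number, a subfamily letter and a gene number, each read by the probe set with the highest mean signal among those that carry 1 symbol. The pattern leaves out Cyp51, and 1 further gene is not analysed here. This gave 96 of the 22180 genes with 1 symbol, of which 91 are annotated as protein coding and 5 as pseudogenes. The stromal knockout group held 3 mice with the label Dermo1Cre/Mt1-mmp(fl/fl), in which a Cre recombinase driven by the Dermo1 locus (Twist2, active in mesenchymal cells) removes floxed Mt1-mmp, the gene now named Mmp14. The wild-type group held 3 mice labelled Mt1-mmp(+/+), littermates of the knockouts per the design text. No group carries Cre alone, and its own effects cannot be told apart from those of losing Mmp14. Each mouse gave 1 array from 400 ng of total RNA of the intact gland, so RNA of epithelial, adipose, fibroblast, vessel and immune cells is mixed. The comparison asks how the loss of this membrane-anchored matrix metalloproteinase from stromal cells alters gene expression in the gland as a whole. The group size is n = 3 throughout, and each array stands for a separate mouse.

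P450s are heme proteins that insert an oxygen atom into their substrates. Most sit in the endoplasmic reticulum and take electrons from a flavoprotein reductase, and a few sit in mitochondria and take them from ferredoxin. Some families make or break down steroid hormones, bile acids, vitamin D and retinoic acid, others hydroxylate fatty acids or form eicosanoid epoxides, and the CYP1, CYP2 and CYP3 families act on drugs and environmental chemicals. The liver is their best known site, and many genes of the large mouse subfamilies are mainly expressed there, while some, such as Cyp2e1, are also known from fat. In the mammary gland, local P450s are known for metabolising oestrogens and environmental carcinogens.

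The arrays were checked first. Mmp14 had 8.57, 8.55 and 8.75 log2 units in the knockout, against 11.18, 10.55 and 10.90 in wild type, a difference of -2.25 ± 0.17 (SE, limma adjusted p = 0.000454, exact two-sided permutation p = 0.1, the smallest that 3 against 3 can give). Array medians lay between 3.77 and 3.89, and arrays correlated across genes (Pearson r, genes not being independent) at 0.975 to 0.983 between groups and 0.990 to 0.992 inside them. Each difference is given in log2 units as knockout minus wild type with its moderated standard error, and a gene is called where limma's p-value, adjusted over all 22180 genes, lies under 0.05. Over all genes, 2717 (12.2%) passed, of which 1121 (5.05%) rose and 1596 (7.2%) fell. The value table has no detection calls, so a group is taken to lie above background for a gene where its mean reaches the 33rd percentile of gene levels (2.68).

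Most P450 genes lay below the background level. Of the 96, 34 lay above background in both groups, Cyp2b10 in the knockout alone, Cyp3a57 and Cyp4f39 in wild type alone, and 59 in neither. Those 59 had means of 0.86 to 2.58 log2 units in the knockout and 0.82 to 2.66 in wild type, and their changes cannot be read. Above background in at least 1 group were thus 37 (38.5%), against 68.8% of all genes. The share of all genes follows largely from the chosen percentile and does not count the genes expressed. Of the 96, 12 passed the test (12.5%), a share near the 12.2% of all genes, with 8 that rose and 4 that fell. All 12 are among the 37 above background (32.4%), and 2654 of the 15255 genes above background over the whole array passed (17.4%). Being above background in either group is itself read from these values, and Cyp2b10 and Cyp3a57 entered through 1 group, so these shares are a description and were not tested. The groups did not overlap in 27 P450 genes (28.1%), against 32.7% of all genes. The median difference was 0.08 over P450 genes and 0.03 over all genes, and the values ran from -2.29 to 2.01. Signals of different probe sets depend on their probes, so they do not rank the transcripts by amount. In bulk tissue, fewer cells of a type and less RNA per cell cannot be told apart.

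**Figure D1:**
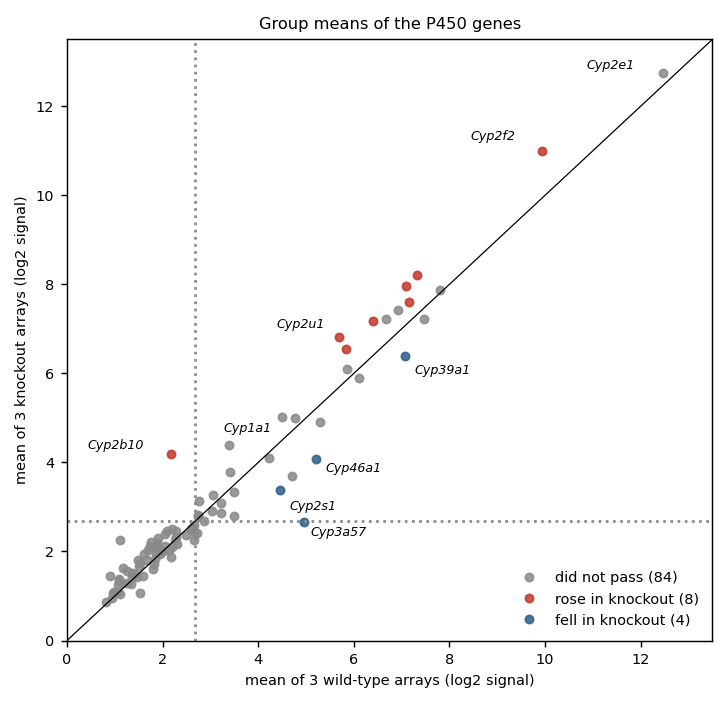
Mean log2 signal of each of the 96 P450 genes over 3 knockout arrays (vertical axis) and 3 wild-type arrays (horizontal axis). The line marks equal means and the dotted lines the background level of 2.68. The 8 genes that rose lie above the line, the 4 that fell below it, and 59 genes sit in the lower left corner, below background in both groups.

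Among the CYP1 genes, which oxidise polycyclic hydrocarbons and oestradiol and are classical targets of the aryl hydrocarbon receptor, Cyp1b1 rose. It had 7.47, 7.29 and 6.78 log2 units in the knockout, against 6.17, 6.42 and 6.63 in wild type. All 3 knockout arrays lay above all 3 wild-type arrays, the nearest pair by a small margin. The difference was +0.77 ± 0.20 (SE, 1.71-fold, limma adjusted p = 0.0464), and leaving out any single array except knockout 3 ended the call (limma adjusted p 0.0662 to 0.145), as did testing every probe set of the array (0.121). Cyp1a1 had 5.16, 4.14 and 3.88 in the knockout, against 3.32, 3.47 and 3.36 in wild type. Knockout 1 stood highest and the groups did not overlap. The difference of +1.01 ± 0.30 did not pass (limma adjusted p = 0.0676). Without knockout 1 it was +0.63 and the gene passed (limma adjusted p = 0.0439), and it also passed without knockout 3 at +1.27 (limma adjusted p = 0.0359). Under 4 other alternatives (both variance trends, repeated quantile normalization and centring) it passed as well (limma adjusted p 0.0427 to 0.0482). In the remaining 9 of 15 alternatives it did not pass (limma adjusted p 0.0512 to 0.174). Cyp1a2, known from liver, lay below background in both groups.

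The region just before the start of both CYP1 genes is shown with the core letters of the element that the aryl hydrocarbon receptor binds. These letters are GCGTG on either strand (CACGC when read on the other), and binding to them was not tested. The sequences are the 250 bases before the RefSeq gene start (build GRCm38.p6), 5′ to 3′ in the direction of the gene, with GCGTG or CACGC in capitals.
Cyp1a1 (chr9:57697363-57697612, plus strand): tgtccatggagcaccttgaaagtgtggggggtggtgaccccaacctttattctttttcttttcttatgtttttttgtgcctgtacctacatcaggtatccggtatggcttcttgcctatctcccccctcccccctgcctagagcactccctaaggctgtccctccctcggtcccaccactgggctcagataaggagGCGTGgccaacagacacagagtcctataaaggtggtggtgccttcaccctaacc
Cyp1b1 (chr17:79715062-79715311, minus strand): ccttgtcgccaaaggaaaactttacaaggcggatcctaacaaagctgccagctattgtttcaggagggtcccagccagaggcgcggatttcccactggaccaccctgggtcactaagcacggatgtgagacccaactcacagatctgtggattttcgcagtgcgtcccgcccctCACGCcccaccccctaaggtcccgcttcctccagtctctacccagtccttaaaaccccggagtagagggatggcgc
Each window holds the motif once, beginning 54 bases before the start in Cyp1a1 and 76 bases before it in Cyp1b1. The same letters stand in 28.2% of all 32851 RefSeq windows of this length and in 16 of 78 windows of P450 genes (20.5%), so a match is common.

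The receptor itself and its other targets did not pass the test. Ahr was 7.41 in the knockout and 7.43 in wild type, and its partner Arnt was 8.79 in the knockout and 8.92 in wild type. Of 5 measured further targets of the receptor, 0 passed with limma at an adjusted p under 0.05, and 0 had an unadjusted p under 0.05. Over all 22180 genes, 12.2% passed and 5876 had a limma unadjusted p under 0.05. The 3 above background were Tiparp (7.26 in the knockout, 7.57 in wild type), Nqo1 (4.68 and 4.74) and Nfe2l2 (9.33 and 9.51). Their means were lower in the knockout, as were those of 45.6% of all genes. Aldh3a1 and the receptor's repressor Ahrr lay below background in both groups.

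Cyp2b10, the phenobarbital-inducible enzyme that the receptor CAR (Nr1i3) controls in mouse liver, had the largest rise of any P450 gene. It had 4.83, 4.33 and 3.41 log2 units in the knockout, against 2.07, 2.70 and 1.78 in wild type. All 3 knockout arrays lay above background and above all wild-type arrays, of which 1 reached background. The difference as read was +2.01 ± 0.37 (SE, limma adjusted p = 0.0125). With the wild-type arrays set no lower than background, the level was at least 2.83-fold higher in the knockout. The call was lost without wild type 1 (limma adjusted p = 0.0538). The other 4 CYP2B genes, Cyp2b9, Cyp2b13, Cyp2b19 and Cyp2b23, lay below background in both groups, as did Nr1i3 itself (2.61 in the knockout and 2.66 in wild type) and the xenobiotic receptor gene Nr1i2 (1.85 and 1.84).

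Cyp2b10 lies in a chromosome 7 cluster of 13 protein-coding P450 genes from Cyp2s1 to Cyp2t4, in the gene order of the RefSeq table. Its nearest coding neighbour, Cyp2s1, changed in the other direction. Cyp2s1, known as an extrahepatic enzyme of epithelia, had 3.61, 3.54 and 2.99 in the knockout, against 4.74, 3.99 and 4.61 in wild type. All knockout arrays lay below all wild-type arrays. It fell by 1.07 ± 0.24 (SE, 2.09-fold, limma adjusted p = 0.0272), a call lost without knockout 2, knockout 3, wild type 1 or wild type 3 (limma adjusted p between 0.0606 and 0.0964) after a further quantile step (0.0544), or with every probe set tested (0.0837). Near the far end of the cluster stands Cyp2f2, which activates naphthalene in lung airway cells. It had 11.24, 10.96 and 10.78 in the knockout, against 10.20, 9.60 and 10.03 in wild type, so that the groups were well apart. Cyp2f2 rose by +1.05 ± 0.19 (SE, 2.08-fold, limma adjusted p = 0.0115), and it passed in all 15 alternatives. A second probe set of Cyp2f2 had 4.47 in the knockout and 3.76 in wild type, a difference of +0.71 ± 0.26 that did not pass when every probe set was tested (limma adjusted p = 0.214). In this cluster 4 of the 13 genes were above background (Cyp2s1, Cyp2b10, Cyp2a22 and Cyp2f2), and the other 9 lay below it in both groups. Cyp2a22 had 3.13 ± 0.32 in the knockout and 2.76 ± 0.19 in wild type (SD), and did not pass (limma adjusted p = 0.241). Probes of near-identical genes in such clusters may share signal, and the probe positions were not used here.

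The windows before the 3 changed genes of the cluster are shown for these unlike directions, with the same letters in capitals. Capitals also mark AGGTCA, the half-site that many nuclear receptors bind, in either orientation. On the other strand this half-site reads TGACCT.
Cyp2s1 (chr7:25816526-25816775, minus strand): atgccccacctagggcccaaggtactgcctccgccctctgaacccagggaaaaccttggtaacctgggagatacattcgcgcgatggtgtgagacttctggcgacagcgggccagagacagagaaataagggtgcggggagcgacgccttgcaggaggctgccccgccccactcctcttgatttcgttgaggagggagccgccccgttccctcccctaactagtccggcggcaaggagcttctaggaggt
Cyp2b10 (chr7:25897408-25897657, plus strand): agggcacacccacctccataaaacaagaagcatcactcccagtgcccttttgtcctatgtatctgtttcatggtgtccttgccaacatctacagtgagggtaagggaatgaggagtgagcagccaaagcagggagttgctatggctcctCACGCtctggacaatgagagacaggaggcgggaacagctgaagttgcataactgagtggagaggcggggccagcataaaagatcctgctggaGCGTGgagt
Cyp2f2 (chr7:27119705-27119954, plus strand): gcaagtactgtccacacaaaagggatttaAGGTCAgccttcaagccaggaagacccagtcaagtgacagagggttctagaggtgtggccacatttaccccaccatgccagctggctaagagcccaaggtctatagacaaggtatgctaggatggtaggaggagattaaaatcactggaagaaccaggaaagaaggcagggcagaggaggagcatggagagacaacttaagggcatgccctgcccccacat
The Cyp2b10 window holds GCGTG letters at 101 and 9 bases before the start, the Cyp2f2 window holds AGGTCA at 221 bases, and the Cyp2s1 window holds neither. Among other called genes, the window of Cyp46a1, which fell, holds GCGTG 4 times, and those of Cyp4b1 and Cyp4f13, which rose, hold neither motif. AGGTCA or TGACCT stands in 14.0% of all windows and in 18 of 78 windows of P450 genes (23.1%).

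**Figure D2:**
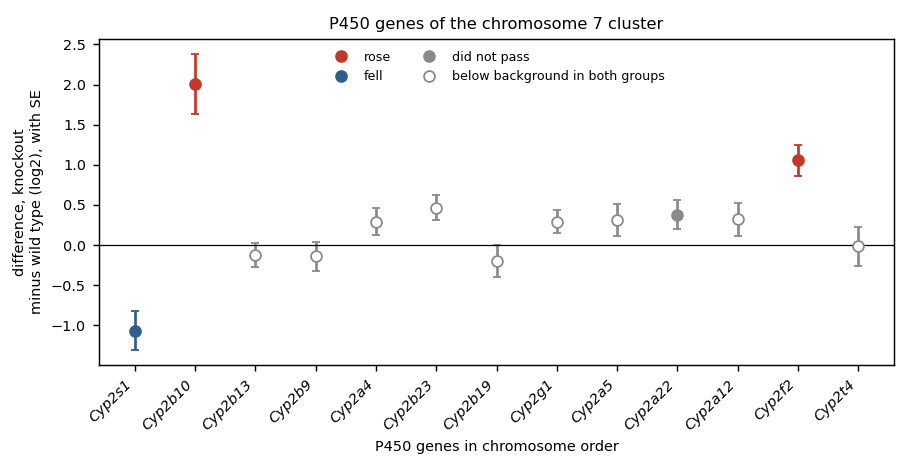
Difference of each of the 13 P450 genes of the chromosome 7 cluster in their chromosomal order (horizontal axis, not to scale), knockout minus wild type in log2 units with the standard error. Filled points are above background in at least 1 group. Cyp2s1 lies at -1.07 beside Cyp2b10 at 2.01, and Cyp2f2 lies at 1.05.

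Cyp3a57 had the largest fall. It is a member of the CYP3A subfamily, whose enzymes oxidise many drugs and steroids. Its values were 3.49, 1.85 and 2.64 log2 units in the knockout, against 4.15, 5.28 and 5.43 in wild type. All knockout arrays lay below all wild-type arrays, and 1 of the 3 knockout arrays stayed above background. It fell by 2.29 ± 0.46 as read (SE, limma adjusted p = 0.0172), and with the knockout arrays set no lower than background the level was at least 4.0-fold lower in the knockout. The call was lost without wild type 2 (limma adjusted p = 0.0631) or wild type 3 (0.0635), and with every probe set of the array tested (0.0611). The other 6 CYP3A genes lay below background in both groups, as did 2 probe sets that several CYP3A genes share. The window before its start is shown as that of the P450 gene with the largest fall, with AGGTCA or TGACCT in capitals.
Cyp3a57 (chr5:145345019-145345268, plus strand): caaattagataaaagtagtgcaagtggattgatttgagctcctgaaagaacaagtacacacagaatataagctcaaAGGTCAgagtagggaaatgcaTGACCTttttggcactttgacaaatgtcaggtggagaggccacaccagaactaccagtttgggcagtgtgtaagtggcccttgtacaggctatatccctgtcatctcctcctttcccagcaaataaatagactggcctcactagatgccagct
It holds these letters at 174 and 153 bases before the start and no GCGTG. The windows of Cyp3a25 and Cyp3a59, which were not called, also hold these letters 2 times. Those of Cyp3a11 and Cyp3a44, also not called, hold them 1 time, and those of Cyp3a13 and Cyp3a16 do not hold them.

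Of the 33 genes of the remaining CYP2 subfamilies (CYP2A, 2C, 2D, 2E, 2F, 2G and 2T), 9 were above background, 2 rose and 0 fell. Called were thus 6.06%, beside 12.2% of all genes, and above background 27.3%, beside 68.8% of all genes. Beside Cyp2f2, the riser was Cyp2d22, a mouse member of the drug-metabolising CYP2D subfamily. It had 7.96, 8.25 and 7.68 log2 units in the knockout, against 6.71, 7.20 and 7.36 in wild type. The groups did not overlap and the difference was +0.87 ± 0.21 (SE, 1.83-fold, limma adjusted p = 0.0349). The call was lost without knockout 1, knockout 2, wild type 1 or wild type 2 (limma adjusted p 0.0739 to 0.106), and with every probe set tested (0.0992). Cyp2e1, which oxidises ethanol and acetone, had 12.78, 12.68 and 12.76 in the knockout, against 12.50, 12.50 and 12.40 in wild type. The knockout arrays lay above the wild-type arrays, but the difference of +0.28 ± 0.11 did not pass (limma adjusted p = 0.148). Fits with a variance trend called it (limma adjusted p = 0.0209, or 0.0162 in the robust form). It stayed uncalled in 13 of 15 alternatives. After repeated quantile normalization the difference was +0.14 (limma adjusted p = 0.476). Leaving out 1 array gave limma adjusted p of 0.201 to 0.304. The array maxima were 13.3 to 13.4, and whether this upper range limits the values was not tested. The CYP2C cluster on chromosome 19 held 1 gene above background among 13, Cyp2c55, with 5.89 ± 0.036 in the knockout and 6.10 ± 0.045 in wild type (SD), which did not overlap and did not pass (limma adjusted p = 0.248). A second probe set of Cyp2c55 read 1.77 in the knockout and 2.00 in wild type, so its probe sets disagree on whether the gene is above background. Those of Cyp11a1 disagree in the same way. The other CYP2 genes above background were Cyp2a22, Cyp2c23, Cyp2d34, Cyp2d40 and the pseudogene Cyp2d37-ps. Of these, Cyp2c23, an arachidonic acid epoxygenase known from mouse kidney, had 2.91, 2.99 and 2.71 in the knockout, against 3.01, 3.45 and 3.19 in wild type. Its groups did not overlap, close to background, and the difference of -0.35 ± 0.15 did not pass (limma adjusted p = 0.189).

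Of 29 genes of fatty acid hydroxylation and epoxidation (the CYP4 family with CYP2J, CYP2S and CYP2U), 15 were above background, 4 rose and 1, Cyp2s1, fell. The share called was 17.2%, beside 12.2% of all genes, and the share above background 51.7%, beside 68.8% of all genes. Cyp2u1, which hydroxylates arachidonic acid and other long-chain fatty acids, had 6.65, 6.83 and 6.96 log2 units in the knockout, against 5.52, 5.73 and 5.79 in wild type. The groups were wide apart relative to their spread. Cyp2u1 rose by +1.13 ± 0.13 (SE, 2.19-fold, limma adjusted p = 0.00232), the smallest adjusted p of the 96 genes, and passed in all 15 alternatives. Cyp4b1, which hydroxylates fatty acids and activates some plant toxins, had 8.0, 8.21 and 8.40 in the knockout, against 7.40, 6.98 and 7.55 in wild type. It rose by +0.89 ± 0.18 (SE, 1.85-fold, limma adjusted p = 0.0175), a call lost without knockout 2 (limma adjusted p = 0.0595) or wild type 1 (0.0517), and with every probe set tested (0.0592).

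The CYP4F subfamily is known for hydroxylating leukotriene B and other eicosanoids. Cyp4f17 had 6.49, 6.74 and 6.39 log2 units in the knockout, against 6.10, 5.65 and 5.74 in wild type. It rose by +0.71 ± 0.16 (SE, limma adjusted p = 0.0271), a call lost without knockout 1, knockout 2, wild type 2 or wild type 3 (limma adjusted p 0.0636 to 0.0912), and with every probe set tested (0.0812). Cyp4f13 had 7.55, 7.67 and 7.58 in the knockout, against 7.13, 7.21 and 7.13 in wild type. The arrays of each group lay close together and the groups were apart. It rose by +0.45 ± 0.11 (SE, 1.36-fold, limma adjusted p = 0.0341), but not when any single array was left out (limma adjusted p 0.0637 to 0.118) or every probe set was tested (0.0888). Cyp4f18, which hydroxylates leukotriene B in mouse neutrophils, had 3.79, 3.92 and 3.41 in the knockout, against 5.09, 4.01 and 5.01 in wild type. The groups did not overlap, but wild type 2 lay close to the knockout and the difference of -1.0 ± 0.29 did not pass (limma adjusted p = 0.0656). Without wild type 2 it was -1.35 and passed (limma adjusted p = 0.00967), as it did with the filter on low values and with both variance trends (0.0408 to 0.0496). In the remaining 11 of 15 alternatives Cyp4f18 did not pass (limma adjusted p 0.0506 to 0.191). Cyp4f15 had a difference of -0.71 ± 0.32 (limma adjusted p = 0.207) with overlapping groups, and Cyp4f16 one of +0.36 ± 0.16 (limma adjusted p = 0.217). The gene Cyp4f39 differed by -0.29 ± 0.16 near background.

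Of the CYP2J genes, which form epoxides of arachidonic acid, Cyp2j6 had 7.34, 7.40 and 6.89 log2 units in the knockout, against 6.54, 6.81 and 6.64 in wild type. The groups did not overlap and the difference of +0.55 ± 0.16 did not pass (limma adjusted p = 0.0707). It passed without knockout 3 at +0.71 (limma adjusted p = 0.0256) and under 5 other alternatives (0.0320 to 0.0490). In the remaining 9 of 15 alternatives Cyp2j6 did not pass (limma adjusted p 0.0686 to 0.201). Cyp2j9 and Cyp2j8 had differences of +0.26 ± 0.16 and +0.22 ± 0.21. Cyp4v3, a fatty acid hydroxylase, had 7.23 ± 0.46 in the knockout and 7.47 ± 0.11 in wild type (SD, limma adjusted p = 0.553). The CYP4A genes are classical targets of the lipid-sensing receptor Ppara in mouse liver. Cyp4a14 lay below background in both groups, at 1.5 in the knockout and 1.42 in wild type. Cyp4a12b (4.10 in the knockout, 4.23 in wild type) and Cyp4a31 (2.83 and 2.75) were above background and did not pass. The 2 probe sets that Cyp4a10 shares with other CYP4A genes read 1.99 and 1.41 in the knockout, against 1.29 and 1.0 in wild type. Ppara itself had 6.58, 7.12 and 6.95 in the knockout, against 5.18, 5.71 and 4.68 in wild type, and rose by +1.69 ± 0.26 (SE, limma adjusted p = 0.00682).

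Of 6 sterol and bile acid hydroxylases, 5 were above background, 2 fell and 0 rose, beside 7.2% of all genes that fell and 5.05% that rose. Cyp46a1, which hydroxylates the side chain of cholesterol and is best known from neurons, had 4.00, 4.36 and 3.89 log2 units in the knockout, against 5.44, 4.86 and 5.33 in wild type. All knockout arrays lay below all wild-type arrays. Cyp46a1 fell by 1.12 ± 0.19 (SE, 2.18-fold, limma adjusted p = 0.00954) and passed in all 15 alternatives. Cyp39a1, which acts on the oxysterol that Cyp46a1 makes, had 6.31, 6.34 and 6.51 in the knockout, against 7.24, 7.04 and 6.93 in wild type. The groups did not overlap. It fell by 0.68 ± 0.13 (SE, 1.61-fold, limma adjusted p = 0.0142), a call lost without knockout 2 (limma adjusted p = 0.0569) or wild type 1 (0.0515). The mitochondrial sterol hydroxylase Cyp27a1 had 7.12, 7.53 and 7.59 in the knockout, against 6.96, 6.42 and 7.39 in wild type, with overlapping groups and a difference of +0.49 ± 0.25 (limma adjusted p = 0.260). The oxysterol hydroxylase Cyp7b1 differed by +0.25 ± 0.19 (limma adjusted p = 0.460). Cyp8b1 lay just above background in both groups, and Cyp7a1, the rate-limiting enzyme of bile acid synthesis, lay below it.

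**Figure D3:**
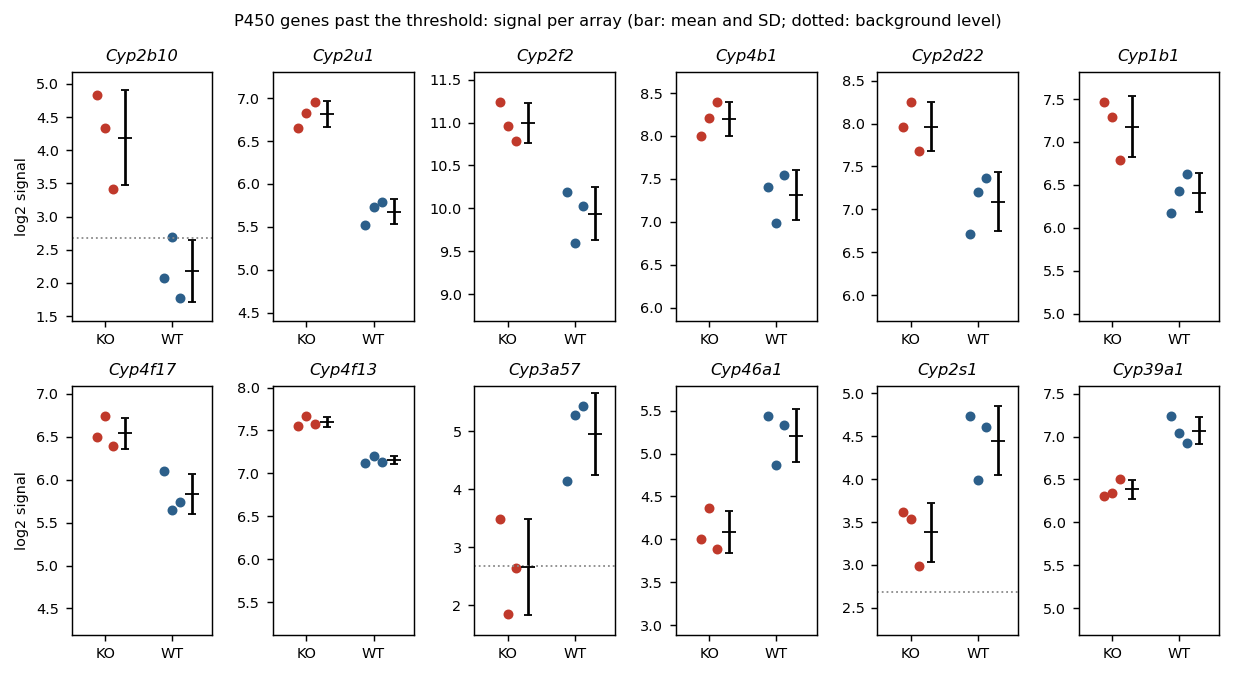
Log2 signal of the 12 P450 genes that passed the test, with 1 point per array for 3 knockout arrays (KO, left) and 3 wild-type arrays (WT, right), and the mean and SD beside them. The dotted line is the background level of 2.68 where it falls in the panel, and each panel has its own vertical range. In every panel the groups do not overlap, with the nearest arrays in Cyp1b1 (6.78 in the knockout, 6.63 in wild type).

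Of the 5 steroid hormone synthesis genes, Cyp11a1, which cuts the side chain of cholesterol, was the 1 above background. It had 5.75, 4.87 and 4.46 log2 units in the knockout, against 4.79, 3.89 and 4.79 in wild type, with overlapping groups and no call (limma adjusted p = 0.400). Its other probe set lay below background in both groups. The 4 others, Cyp11b1, Cyp11b2, Cyp17a1 and Cyp21a1, lay below background. Of 5 vitamin D and retinoic acid genes, Cyp2r1, which makes the circulating form of vitamin D, was the 1 above background. It had 4.63, 5.03 and 5.07 in the knockout, against 5.09, 5.66 and 5.10 in wild type, lower without overlap but not past the test (limma adjusted p = 0.284). The vitamin D activating Cyp27b1, the inactivating Cyp24a1 and the retinoic acid hydroxylases Cyp26a1 and Cyp26c1 lay below background in both groups. The vitamin D receptor gene Vdr, which induces Cyp24a1, fell by 1.72 ± 0.14 (SE, limma adjusted p = 0.000572), with 5.26, 4.90 and 4.85 in the knockout, against 6.69, 6.74 and 6.73 in wild type. Of the 3 genes outside these roles, the orphan enzyme gene Cyp20a1 had 7.87 ± 0.20 in the knockout and 7.81 ± 0.08 in wild type (SD, limma adjusted p = 0.817), and Cyp2w1 was below background. Cyp2ab1 had 3.33, 3.40 and 3.26 in the knockout, against 3.41, 3.42 and 3.67 in wild type, a small difference of -0.17 without overlap that did not pass.

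**Figure D4:**
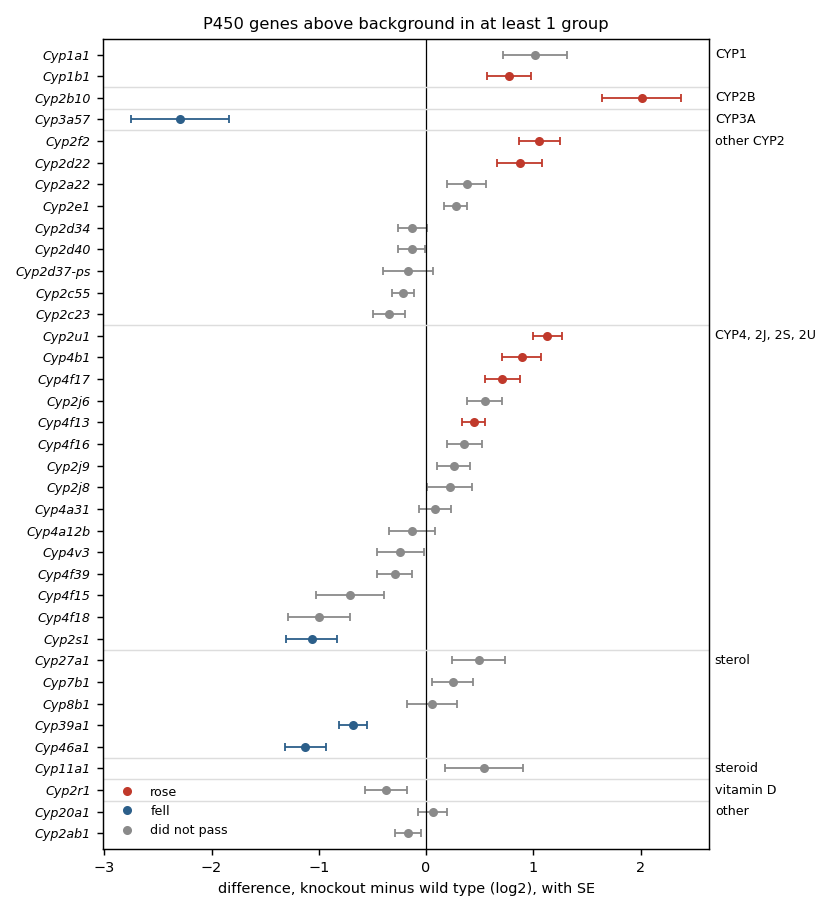
Difference of the 37 P450 genes above background in at least 1 group, knockout minus wild type in log2 units with the standard error, grouped by role from top to bottom. Genes that rose are red, genes that fell blue and genes that did not pass grey. Cyp2b10 at 2.01 and Cyp3a57 at -2.29 mark the ends of the range.

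Genes that serve P450s were taken from lists of partners and regulators. The electron donor list had 7 measured genes, which include the partners Pgrmc1 and Pgrmc2. Of these 7, 0 passed with limma at an adjusted p under 0.05 and 3 had an unadjusted p under 0.05. Over all 22180 genes, 12.2% passed and 5876 had a limma unadjusted p under 0.05. The flavoprotein reductase gene Por and the ferredoxin reductase gene Fdxr are not among the 7 and were not analysed here. The means of the cytochrome b5 reductase Cyb5r3 were 11.20 in the knockout and 11.23 in wild type. Those of the mitochondrial cytochrome b5 gene Cyb5b were 9.69 in the knockout and 9.71 in wild type, and those of Pgrmc1, a heme-binding partner of P450s, 9.39 in the knockout and 9.40 in wild type. The mitochondrial donor ferredoxin, Fdx1, had 6.88, 7.02 and 6.95 in the knockout, against 5.86, 6.16 and 6.78 in wild type, a difference of +0.68 ± 0.22 without overlap that did not pass (limma adjusted p = 0.0912). Of 12 heme genes, 0 rose and 1 fell, beside 5.05% of all genes that rose and 7.2% that fell. Higher means in the knockout were seen in 10, of which 0 passed, beside 54.4% of all genes with a higher mean. The heme-degrading oxygenase Hmox1 fell by 0.61 ± 0.12 (SE, limma adjusted p = 0.0149), with 7.39, 7.43 and 7.55 in the knockout, against 8.19, 8.02 and 7.98 in wild type. Alas1, the rate-limiting enzyme of heme synthesis, differed by +0.26 ± 0.12 (limma adjusted p = 0.217), and ferrochelatase, Fech, by +0.72 ± 0.22 (limma adjusted p = 0.0733). Hmox2, the constitutive heme oxygenase, had 7.82 in the knockout and 7.80 in wild type.

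The list of receptors that control P450 genes, which also holds Arnt and Ahrr, had 18 measured genes. Of these, 13 were above background, 3 rose and 1 fell, against 12.2% of all genes called. Beside Ppara, the risers were the retinoid X receptor Rxrg, at +0.86 ± 0.14 (SE, limma adjusted p = 0.00777), and Nr5a2, a receptor known for bile acid synthesis genes in liver, at +0.69 ± 0.14 (limma adjusted p = 0.0167). Pparg (10.84 in the knockout, 10.38 in wild type) and Rxra (8.61 and 8.16) did not pass (limma adjusted p = 0.0557 and 0.0880). In the list of P450 genes with other names and epoxide hydrolases, 4 of 6 measured genes passed, beside 12.2% of all genes. Of these, 1 rose and 3 fell. The prostacyclin synthase gene Ptgis fell by 1.15 ± 0.11 (SE, limma adjusted p = 0.00115), with 4.81, 4.74 and 4.61 in the knockout, against 5.92, 5.89 and 5.81 in wild type. The thromboxane synthase gene Tbxas1 fell by 0.61 ± 0.12 (limma adjusted p = 0.0147), with 5.03, 5.19 and 5.18 in the knockout, against 5.84, 5.64 and 5.75 in wild type. Of the 4 epoxide hydrolases, 1 rose and 1 fell. Ephx1, which acts on xenobiotic epoxides, fell by 0.86 ± 0.15 (SE, limma adjusted p = 0.00932). Ephx2, which hydrolyses the epoxides that CYP2J and CYP2C enzymes form from arachidonic acid, rose by +0.76 ± 0.15 (limma adjusted p = 0.0168), with 10.30, 10.55 and 10.72 in the knockout, against 9.66, 9.96 and 9.66 in wild type. Ephx3 had 4.46, 4.35 and 5.2 in the knockout, against 5.28, 5.41 and 4.96 in wild type, with overlapping groups and no call (limma adjusted p = 0.189), and Ephx4 lay below background in both groups.

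**Figure D5:**
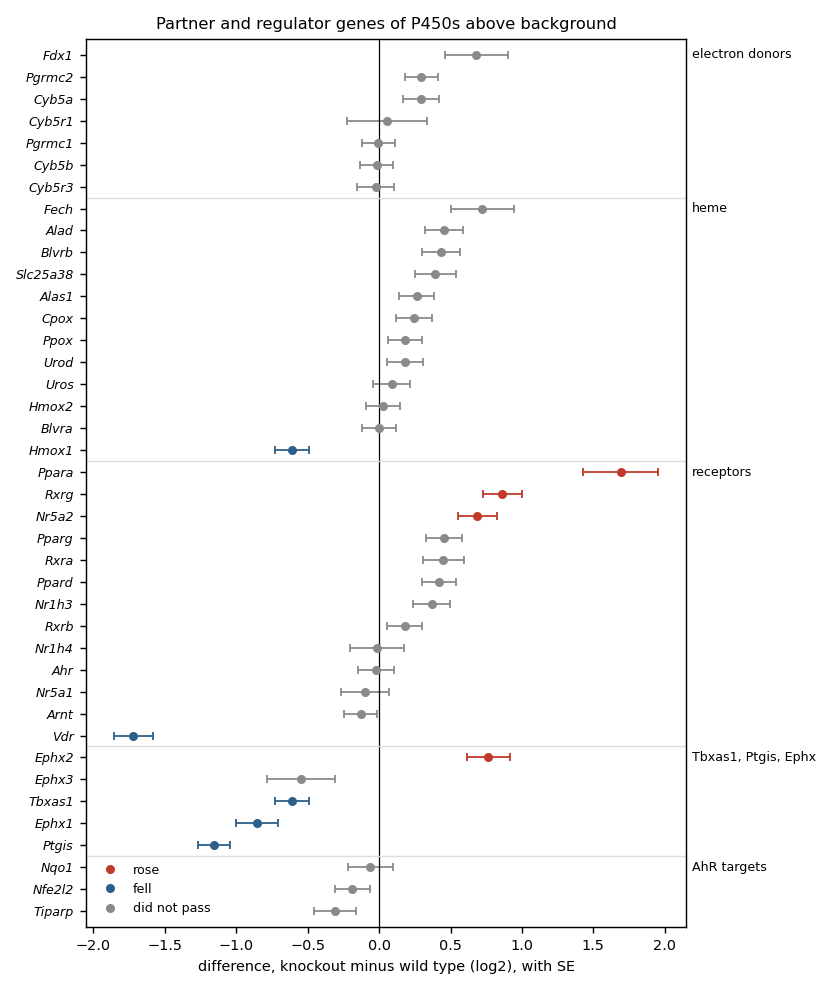
Difference of the partner and regulator genes above background in at least 1 group, knockout minus wild type in log2 units with the standard error. From top to bottom stand the lists of electron donors (7 genes), heme (12) and receptors (13). Below them stand the list with Tbxas1, Ptgis and the epoxide hydrolases (5) and the aryl hydrocarbon receptor (AhR) targets (3). Red points rose, blue points fell and grey points did not pass. Ppara at 1.69 and Vdr at -1.72 mark the ends.

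Markers of the gland's cell types moved with these groups, and their part in the P450 differences was not tested. All 13 measured luminal epithelial markers fell and 7 of 10 basal ones, beside 7.2% of all genes that fell. The basal markers Trp63, Mylk and Myh11 did not pass, and the brightest basal marker was Acta2 (10.73 in the knockout, 11.50 in wild type). The log2 of the summed luminal signals was 8.99 to 9.30 in the knockout and 11.4 to 11.6 in wild type, and that of the basal signals 11.0 to 11.4 in the knockout and 12 to 12.2 in wild type. Of 11 fibroblast markers 5 fell (summed 14.0 to 14.1 in the knockout, 14.4 to 14.6 in wild type), and of 10 macrophage markers 5 fell (11.3 on all 3 knockout arrays, 11.7 to 11.9 in wild type). Of 10 thermogenic adipocyte markers 6 rose (12.2 to 12.8 in the knockout, 9.46 to 11.1 in wild type), of 9 mature adipocyte markers 3 rose (14.9 in the knockout, 14.6 in wild type), and of 10 endothelial markers 3 rose (12.1 to 12.6 in the knockout, 11.9 in wild type). Over all genes 5.05% rose. The thermogenic markers that did not pass were Ucp1 (+3.04, limma adjusted p = 0.0709), Prdm16 (+0.42), Dio2 (-0.65) and Elovl3 (-0.67). Lower means in the knockout were also seen in 1 mature adipocyte and 2 endothelial markers, and a higher mean in 1 macrophage marker. Of the hepatocyte markers, 7 of 12 lay below background in both groups, including Apoa1, Ttr, Serpina1a, Fga and Tat, 1 rose (Alb) and 1 fell (Fgb). Their sum was 9.21 to 9.66 in the knockout and 8.73 to 8.94 in wild type. Steroidogenic markers had 0 of 5 called, with Hsd3b1 and Fshr below background in both groups (7.80 to 8.95 in the knockout, 7.58 to 7.65 in wild type). Epidermal and sebaceous markers had 0 of 11 called, with 4 below background (7.97 to 8.95 in the knockout, 7.79 to 8.24 in wild type). Skeletal muscle markers had 0 of 10 called (6.86 to 6.93 in the knockout, 6.84 to 10.2 in wild type), and wild type 1 had the highest mean over them. Wild type 1 also had the lowest mean over the thermogenic markers (5.69, against 7.14 in wild type 2 and 6.47 in wild type 3). Without wild type 1, 6 P450 genes passed, 3 that rose and 3 that fell. Of these, 5 are among the 12 called with all arrays. The other is Cyp3a44, which lay below background in both groups, so that its change cannot be read.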

How the data were processed

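RNA of 6 inguinal mammary glands (3 stromal knockout, 3 wild type) was measured on Affymetrix arrays. Per the submitters' processing notes, the authors used RMA and limma, with no version given, and the deposited values are log2 signals per probe set. RMA as a method corrects background, quantile-normalizes across arrays and summarises probes. Arrays carry no read depth, so the number of arrays limits the precision. The table holds 41345 probe sets, of which 23521 carry 1 gene symbol in the platform annotation, 1814 several and 16010 none. The 96 P450 genes had 100 probe sets with 1 symbol.

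From these values, group differences were fitted with limma 3.58.1 in R 4.3.3 (lmFit, eBayes without a trend), with p-values adjusted by Benjamini-Hochberg over 22180 genes. The P450 genes, the partner and marker lists and the tests were chosen with earlier results of these data known. Named are the P450 genes that passed, the 10 with the highest mean, those above background in both groups with a difference of at least 0.5 log2 units, members of counts of 5 or fewer, and in each partner list the genes that passed and the 3 with the highest mean. Other genes were named after their values were seen. On simulated data of 22180 genes for this comparison, the fit recovered 30 of 71 genes changed by 1 log2 unit (42.3%). It recovered 57 of 61 changed by 2 (93.4%) and 1 of 68 changed by 0.5 (1.47%), with 4 false calls among 21980 unchanged genes. Far fewer genes changed in the simulation than the 2717 called here. The adjusted p depends on that number, so these rates need not hold for the real comparison. Alternatives covered the normalization, centring, variance model, filter, probe sets, threshold, background level, array weights, a replicate block and each left-out array. Promoter windows came from RefSeq (GRCm38.p6) and were found by symbol for 70 of the 96 genes.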

Additional observations from a re-analysis of the deposited data

How the results depend on the processing

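All 12 called P450 genes kept their direction in all 15 alternatives run per gene, and Cyp2f2, Cyp2u1 and Cyp46a1 passed in each. Of 315 values over 21 named P450 genes, 254 kept direction and side of the threshold, 42 no longer passed, 18 newly passed and 1 turned its sign (Cyp20a1, -0.027 without knockout 1 and 0.17 without knockout 3, never past the test). Leaving out 1 array gave 5 to 13 called P450 genes (5 without knockout 2, 6 without wild type 1, 7 without wild type 3), 3 to 9 that rose, 2 to 4 that fell, and 1490 to 2304 called among all genes. The median P450 difference then ran from 0.059 to 0.11, and 36 to 40 P450 genes were above background. Of the 12 genes called with all arrays, 5 stayed called without knockout 2 or without wild type 1, and 10 without knockout 3. Genes gained include Cyp3a44 (without wild type 1) and Cyp2d26 (without knockout 3), whose group means over all arrays lay below background. With every probe set tested, 5 P450 genes passed (3 rose, 2 fell) and 1331 of all genes. A change of at least 2-fold left 6. Variance trends gave 16, the filter on low values 14 and an adjusted p under 0.1 gave 15. With the median of gene levels as background 21 P450 genes were above it, and with olfactory receptor genes 33. Centring moved the median of all genes from 0.032 to 0.12 and called 14 P450 genes (10 rose, 4 fell). The arrays share replicate numbers, and the deviations of same-numbered arrays from their group means correlated at r = -0.034, -0.052 and -0.032. Centring within groups of 3 ties these values to one another, so they cannot settle whether the numbers pair the arrays. With the replicate block 8 P450 genes passed, of which 4 rose and 4 fell. Cyp1b1, Cyp2d22, Cyp4f13 and Cyp4f17 lost their call under the block (limma adjusted p 0.0555 to 0.0996). The cause of the changed counts was not tested. Values near background limit what can be read for 59 of the 96 genes.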
